A study of Danio rerio with 1152 samples.

Results

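The FGF genes described here are 4 ligands (FGF8A, FGF17, FGF24 and FGF3) and 6 genes known as feedback or co-regulated components of the pathway (SPRY1, SPRY2, SPRY4, DUSP6, IL17RD and FLRT3). They were chosen by name, with earlier results of these data known. All 10 were present among the 13902 genes of the deposited table, whose capital symbols are kept. The series profiled single zebrafish (Danio rerio) cells at 50% epiboly, when the blastoderm has spread over the upper part of the yolk. Embryos came from TL/AB in-crosses and were cultured at 23°C or 28°C, and hand-picked cells of dissected blastoderm caps were sequenced 1 per well. The 1152 wells form 3 experimental batches of equal size, with plates 5 to 8 named for batch 1, and the labels give no treatment, genotype difference or number of embryos. Wells with at least 2000 detected genes were kept, which left 1000 cells, or 90.4% of the wells of batch 1, 77.1% of batch 2 and 93% of batch 3.

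Median depth of the kept cells was 57293 UMIs (unique molecular identifiers, tags that mark single cDNA molecules) in batch 1, 55922.5 in batch 2 and 35746 in batch 3. The batch was the replicate (n = 3) and cells were not replicates. Nothing in the labels says that the batches came from separate clutches, so the spread between them may be technical. The counts of 1 pair of wells, from batches 2 and 1, agreed within sampling noise (chi-square 0.5003 per degree of freedom, against 1.091 for the next closest pair), and leaving both out changed no call on the 10 genes. Levels are UMIs per 10000 UMIs. The method counts transcript 5′ ends per molecule, so they were not divided by gene length.

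FGF ligands are secreted proteins that bind FGF receptors on nearby cells and activate the RAS and ERK kinase cascade. In zebrafish, FGF8A and FGF24 act together to form posterior mesoderm at the blastoderm margin, and FGF signalling maintains TA, the zebrafish Brachyury T-box factor of the margin. The pathway also switches on its own inhibitors: Sprouty proteins act inside the cell, DUSP6 removes phosphate from ERK, and IL17RD (also called Sef) is a transmembrane inhibitor. FLRT3 is a transmembrane protein that in Xenopus binds FGF receptors and promotes their signalling.

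By their mean over batches, the feedback genes IL17RD, FLRT3 and DUSP6 were the most abundant of the 10, and FGF3 the least. In batches 1 and 2, however, the ligand FGF17 stood above both FLRT3 and DUSP6. IL17RD stood at 0.947 ± 0.181 UMIs per 10000 (SD, n = 3 batches) and had a UMI in 60.1% of the 1000 cells. FLRT3 stood at 0.774 ± 0.391 with 38.4% of cells positive, and DUSP6 at 0.645 ± 0.122 with 58.8%. FLRT3 was therefore concentrated in fewer cells than DUSP6 at a similar mean. Among the ligands, FGF17 was the most widespread, at 0.582 ± 0.120 in 62.1% of cells. FGF8A reached 0.474 ± 0.091 in 23.9% of cells, with up to 79 UMIs in a single cell. The other levels were 0.179 ± 0.032 for SPRY2 (21.8% of cells), 0.145 ± 0.042 for SPRY4 (15.8%), 0.0786 ± 0.0286 for FGF24 (9.1%), 0.0651 ± 0.0103 for SPRY1 (8.6%) and 0.0188 ± 0.0073 for FGF3 (2%). In this order, the batch values of neighbours overlapped except between FGF8A and SPRY2, between SPRY4 and FGF24, and between SPRY1 and FGF3. FLRT3 varied most between batches, with 0.627, 0.478 and 1.22 UMIs per 10000 in batches 1, 2 and 3. Within batch 1, where plates are named, FLRT3 ranged from 0.451 to 0.763 over the 4 plates.

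To ask which of these genes followed the margin, 551 TA-positive cells (at least 1 TA UMI) were set against 449 TA-negative cells. UMIs were summed per class and batch and tested with edgeR's quasi-likelihood test with batch as a block. Of the 9 genes tested, 4 were higher in TA-positive cells (FGF8A, FLRT3, SPRY2 and DUSP6), none was lower, and all 9 differences were positive. Over all 8299 genes tested, 1.2% were called higher and 0.265% lower. The median log2 difference was 1.31 for the 9 genes, against -0.0043 for all genes tested.

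Of the ligands, FGF8A had the clearest margin pattern. It stood at 0.595, 1.10 and 0.656 UMIs per 10000 in TA-positive cells of batches 1, 2 and 3, against 0.0968, 0.113 and 0.149 in TA-negative cells. Every TA-positive value lay above every TA-negative value, with a log2 difference of 2.68 (SE 0.23, 6.40-fold, adjusted p = 1.9e-06). FGF24 had 0.0933, 0.0975 and 0.153 UMIs per 10000 in TA-positive cells, against 0.0512, 0.0160 and 0.0122 in TA-negative cells. These classes also did not overlap, but the log2 difference of 2.18 (SE 0.53) missed the threshold (adjusted p = 0.0546), though it passed under 5 of 13 alternatives. FGF3 UMIs were found only in TA-positive cells here: 92 UMIs in 20 of 551 TA-positive cells and 0 in 449 TA-negative cells. A count of 0 in 449 cells allows a share of up to 0.668% of cells with an FGF3 UMI, counting error only; a cell without a UMI may still express the gene. With TA-negative cells set to a floor of 3 counts FGF3 was at least 24.5-fold higher in TA-positive cells. FGF3 was below the detection filter of 5% of cells and so was not among the 9 genes tested. With no detection filter it was called higher in TA-positive cells (adjusted p = 2.7e-04).

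FGF17, a close relative of FGF8A, was spread far more evenly. It had 0.726, 0.772 and 0.523 UMIs per 10000 in TA-positive cells, against 0.649, 0.463 and 0.302 in TA-negative cells. It was higher in TA-positive cells within each of the 3 batches, but the classes overlapped and the log2 difference of 0.53 (SE 0.17) did not pass the test (adjusted p = 0.26).

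The feedback genes divided in the same comparison. FLRT3 had 0.826, 0.884 and 1.61 UMIs per 10000 in TA-positive cells, against 0.377, 0.155 and 0.349 in TA-negative cells (log2 difference 1.90, SE 0.21, adjusted p = 3.1e-05). DUSP6 had 0.779, 0.907 and 0.946 in TA-positive cells, against 0.309, 0.318 and 0.429 in TA-negative cells (log2 difference 1.31, SE 0.16, adjusted p = 7.7e-05). For both genes no TA-negative value reached a TA-positive one. SPRY2 had 0.204, 0.298 and 0.258 UMIs per 10000 in TA-positive cells, against 0.0679, 0.0981 and 0.0902 in TA-negative cells, again without overlap (log2 difference 1.55, SE 0.29, adjusted p = 0.0064). The call for SPRY2 was lost without batch 3 and without the replicate block, with adjusted p of at most 0.0731 over 13 alternatives.

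The remaining Sprouty genes were higher in TA-positive cells of every batch and did not pass. SPRY1 differed by 1.24 on the log2 scale (SE 0.50, adjusted p = 0.46) and SPRY4 by 1.12 (SE 0.37, adjusted p = 0.27). IL17RD had the smallest difference of the 9 tested genes, with 1.00, 0.885 and 1.19 UMIs per 10000 in TA-positive cells, against 0.944, 0.649 and 0.944 in TA-negative cells. These values overlapped, and the log2 difference was 0.27 (SE 0.13, adjusted p = 0.62).

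**Figure D1:**
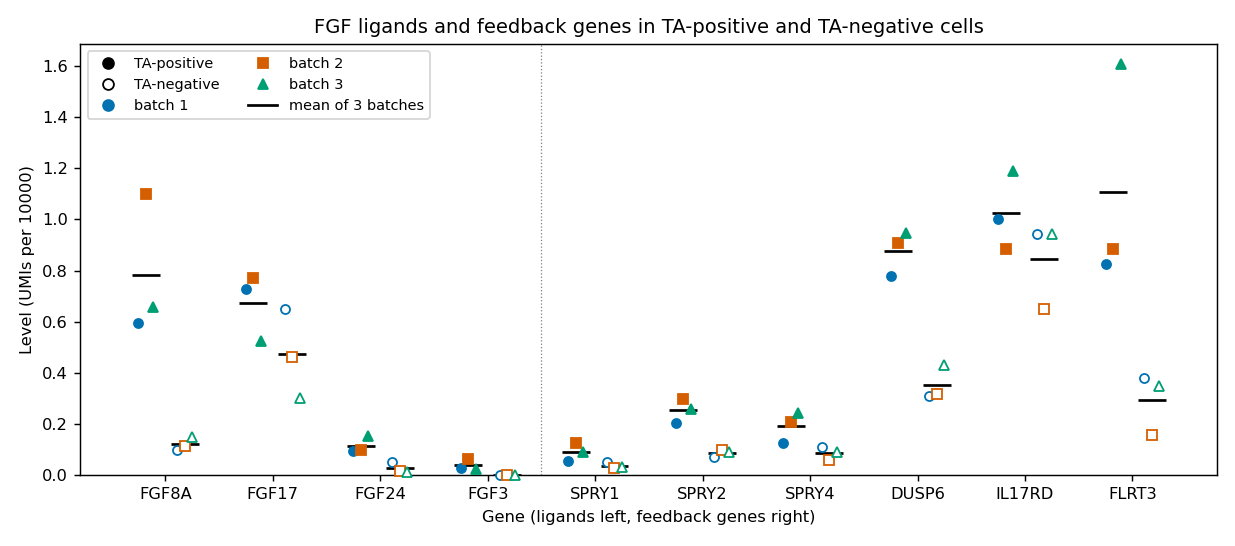
Level of each gene (y axis, UMIs per 10000) in TA-positive cells (filled markers, left of each pair) and TA-negative cells (open markers, right), with 1 marker per experimental batch and a line at the mean of the 3 batches. FGF8A, FLRT3, DUSP6 and SPRY2 passed the test, while the values of FGF17 and IL17RD overlapped between the classes.

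Markers of other cell types moved in part with this split. Enveloping-layer-like (EVL-like) cells, set apart by 5 keratin genes that mark the outer epithelium, made up 33%, 19.2% and 24.9% of TA-positive cells, against 23.3%, 12.7% and 21% of TA-negative cells. The summed keratins ranged from 8.47 to 11.1 UMIs per 10000 in TA-positive cells and from 6.72 to 8.73 in TA-negative cells, and all 5 genes were detected. The yolk syncytial layer markers HNF4A, CTSLL and GATA6 were all detected. Their sum ranged from 0.453 to 1.03 in TA-positive cells and from 0.315 to 0.860 in TA-negative cells. Of these markers, GATA6 alone was higher in TA-positive cells of every batch. CTSLL had 0.438, 0.766 and 0.154 in TA-positive cells, against 0.514, 0.173 and 0.190 in TA-negative cells. HNF4A was lower in TA-positive cells of batch 3 (0.0143 against 0.0268). TA-positive cells also had more detected genes on average, with 3948, 3418 and 3369 against 3555, 3180 and 3002 in TA-negative cells. TA was found in 62% ± 7.4 of EVL-like cells, against 54.45% ± 10.7 of all kept cells (SD, n = 3 batches). Keratin levels alone define the EVL-like group, and whether its cells were outer epithelium was not tested. Without the EVL-like cells, and with every cell thinned to 15000 UMIs, the same 4 genes were called. The germ line markers NANOS3, DAZL and DDX4 summed to 2.63 to 3.04 in TA-positive cells and 1.37 to 4.51 in TA-negative cells. The part of the yolk syncytial layer and germ line markers was not tested.

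The other genes of the pathway, taken from fixed lists, gave few calls. Among 5 tested FGF receptor genes, FGFR4 alone was called: it fell to 1.30, 1.06 and 1.06 UMIs per 10000 in TA-positive cells, against 1.71, 1.90 and 1.85 in TA-negative cells (log2 difference -0.70, SE 0.11, adjusted p = 0.0017). The classes did not overlap, and the call was lost in 2 of 13 alternatives. The other 4 receptor genes were not called, and the list's median log2 difference was -0.45. Among 7 tested ETS and ERK target genes, DUSP4, a MAP kinase phosphatase, was higher in TA-positive cells (log2 difference 1.27, SE 0.20, adjusted p = 9.6e-04) and the other 6 were not called (median log2 difference of the list 0.08). The ETS factors ETV4 and ETV5B, which FGF signalling is known to induce, were among these 6. ETV4 averaged 3.76 ± 0.19 UMIs per 10000 in TA-positive cells and 3.46 ± 0.24 in TA-negative cells (SD, n = 3 batches), and ETV5B averaged 4.90 ± 0.07 and 4.58 ± 0.26 in the same order of classes. Both were found in most cells of either class, with ETV4 in 95.6% of TA-positive and 95.5% of TA-negative cells. None of 19 tested genes of intracellular signalling and none of 3 other FGF ligands was called. Of 12 tested margin and mesoderm genes known to depend on FGF, 11 were higher in TA-positive cells, including APLNRB, an apelin receptor of mesendoderm (log2 difference 1.92, SE 0.11, adjusted p = 3.1e-08), and TBX16, a T-box factor of mesoderm (log2 difference 0.87, SE 0.08, adjusted p = 5.7e-06). The median log2 difference of that list was 1.90. These lists were chosen with earlier results of these data known, and many of their members are margin genes by definition.

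How far each transcript reached beyond TA-positive cells was described by the share of its UMIs that lay in TA-negative cells. TA-negative cells held 43.7% of all UMIs on average over the 3 batches, which is the share of an evenly spread transcript. The mean share was 0% for FGF3, 10.7% ± 1.3 for FGF8A, 17% ± 13.5 for FGF24 and 35.1% ± 12.5 for FGF17 (SD, n = 3 batches). Among the feedback genes it was 17.9% ± 8.9 for FLRT3, 21.3% ± 7.8 for SPRY2, 23.9% ± 6.8 for DUSP6, 25.8% ± 15.1 for SPRY1, 27.2% ± 13.5 for SPRY4 and 39.1% ± 11.3 for IL17RD. By these means FGF8A was thus the tightest of the well-detected genes and IL17RD the closest to an even spread. In batch 3, however, the share was 8.89% for FLRT3 and 9.26% for FGF8A. TA-negative cells are those without a TA UMI, and such a cell may still hold TA transcripts. With cells thinned to 15000 UMIs the shares were higher, at 17.4% ± 4.9 for FGF8A, 28.9% ± 18.3 for FGF24 and 26.2% ± 11.4 for FLRT3, where TA-negative cells then held 52.2% of all UMIs. FGF8A and IL17RD kept their places, while FGF24 then lay above FLRT3. Counted by cells, DUSP6 was found in 72.6% of TA-positive and 41.9% of TA-negative cells, FLRT3 in 53% and 20.5%, and FGF8A in 36.7% and 8.24%.

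A similar order appeared when cells thinned to 15000 UMIs were grouped by their number of TA UMIs. FGF8A had a mean of 0.169 ± 0.026 UMIs per 10000 in cells with 0 TA UMIs, 0.503 ± 0.160 with 1 to 2, 0.620 ± 0.185 with 3 to 5 and 1.53 ± 0.82 with 6 or more. The highest group exceeded the group without TA by 9.05 times for FGF8A, 6.29 for FGF24, 4.64 for SPRY1, 4.37 for SPRY2, 4.26 for FLRT3 and 3.82 for DUSP6. The ratio was 2.12 for SPRY4, 1.77 for FGF17 and 1.49 for IL17RD. SPRY1 and FGF17 were lower in the highest group than in the group without TA in batch 1 (0.0571 against 0.0622 and 0.514 against 0.639 UMIs per 10000), and the other 7 genes with a ratio were higher in all 3 batches. Without batch 2 the ratio was 5.96 for FGF8A and 2.75 for SPRY1, without batch 1 it was 8.85 for SPRY1, and without batch 3 it was 3.68 for FGF24 (an alternative chosen after seeing the data). DUSP6 already reached 0.638 ± 0.241 UMIs per 10000 in cells with 1 to 2 TA UMIs, against 0.354 ± 0.065 in cells with none. The 6-or-more group held 35, 44 and 83 cells in batches 1, 2 and 3, and its FGF8A levels ran from 0.971 to 2.47 over the batches.

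**Figure D2:**
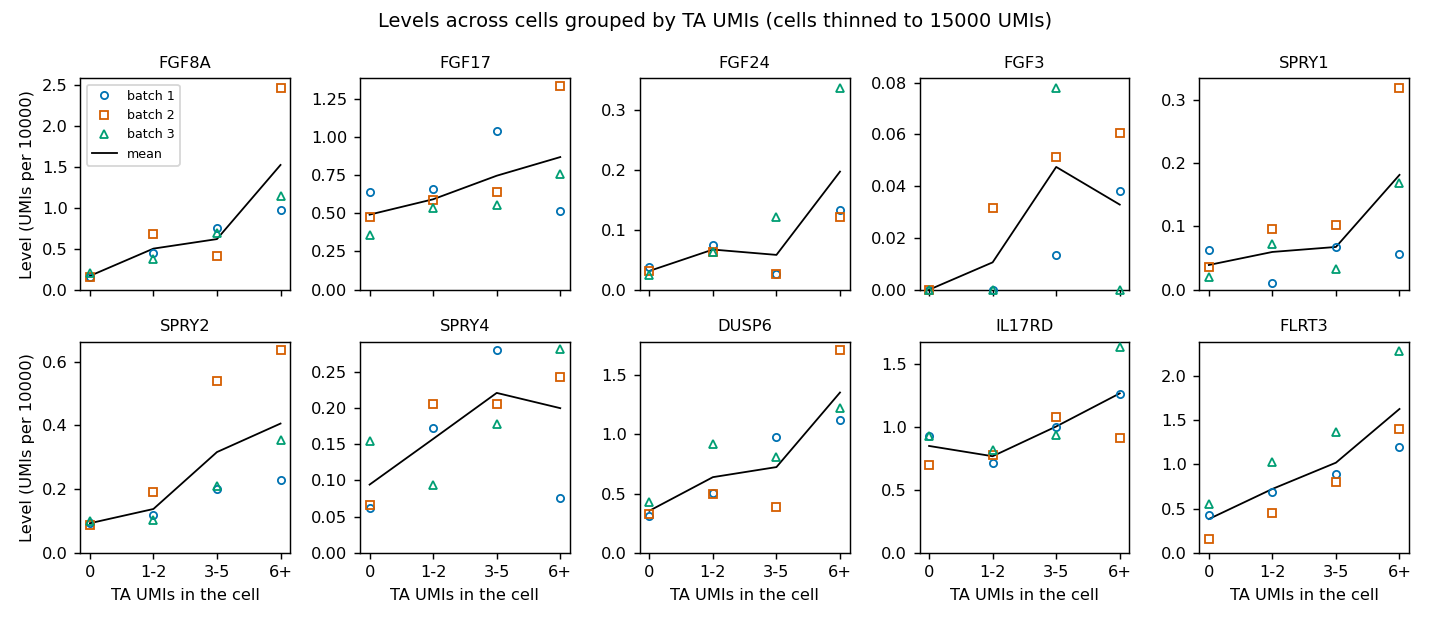
Level of each gene (y axes, UMIs per 10000, separate scales) in cells grouped by TA UMIs (x axes: 0, 1 to 2, 3 to 5, 6 or more), after thinning each cell to 15000 UMIs. Markers are batches and the line is their mean. FGF8A and FLRT3 climb over the groups, to 1.53 and 1.63 at the top, while IL17RD goes only to 1.27, against 0.848 without TA.

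Among TA-negative cells alone, those with the highest 1 in 3 of a margin score (TBX16, MIXL1, EVE1, WNT8A, NDR1 and LFT2) were set against the lowest 1 in 3, as cells nearer to and farther from the margin program. None of the 7 genes tested was called, where 0.221% of 8137 genes were called higher and 0% lower, and 396 genes had an unadjusted p under 0.05. FLRT3 had 0.673, 0.407 and 0.732 UMIs per 10000 in near-margin cells, against 0.316, 0.0131 and 0.169 in far cells. The classes did not overlap, and the log2 difference was 2.36 (SE 0.53, adjusted p = 0.13). FLRT3 passed the test under 7 of 13 alternatives, among them DESeq2, no EVL-like cells, and leaving out batch 1 or batch 3. FGF8A (log2 difference 1.78, SE 0.69, adjusted p = 0.98) and DUSP6 (0.80, SE 0.37, adjusted p = 0.998) were far from passing, though their batch values did not overlap either. FGF17 was higher in near-margin cells within all 3 batches, with overlapping values over batches (log2 difference 1.06, SE 0.32, adjusted p = 0.59). The share of all tested genes without overlap was not counted, here or in the other comparisons. DUSP4 was called here too (log2 difference 1.98, SE 0.31, adjusted p = 0.0092), with 1.04, 0.653 and 1.20 UMIs per 10000 in near-margin cells, against 0.343, 0.158 and 0.234 in far cells. EVL-like cells were 32.1%, 14.6% and 14.6% of near-margin cells and 18.9%, 10.9% and 31.7% of far cells. The yolk syncytial layer sum was 1.20, 0.593 and 0.346 UMIs per 10000 in near-margin cells, against 0.608, 0.187 and 0.189 in far cells, and near-margin cells were shallower, with medians of 54465, 43862 and 28316 UMIs against 57022, 60828 and 34851 in far cells. FLRT3 passed both without EVL-like cells and with cells thinned to 15000 UMIs, and DUSP4 passed under all 13 alternatives. The part of the yolk syncytial layer markers in the differences was not tested.

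Whether cells that make a ligand also carried the feedback genes was asked ligand by ligand. FGF8A-positive cells were set against the 761 FGF8A-negative cells, and 3 of 8 tested genes were higher (FLRT3, FGF17 and DUSP6), where 1.36% of all genes were called higher and 0.398% lower. The other 5 differences were positive and not called. This comparison shares most of its cells with the TA split, since 84.5% of FGF8A-positive cells were TA-positive.

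FLRT3 had 1.38, 1.66 and 2.22 UMIs per 10000 in FGF8A-positive cells, against 0.380, 0.149 and 0.837 in FGF8A-negative cells (log2 difference 2.18, SE 0.26, adjusted p = 3.7e-05). FGF17 had 0.932, 1.37 and 0.845 in FGF8A-positive cells, against 0.613, 0.384 and 0.307 in FGF8A-negative cells (log2 difference 1.28, SE 0.21, adjusted p = 8.9e-04). DUSP6 had 0.816, 0.920 and 1.16 in FGF8A-positive cells, against 0.490, 0.484 and 0.644 in FGF8A-negative cells (log2 difference 0.82, SE 0.16, adjusted p = 0.0052). In all 3 genes the classes were apart. Here, as in the other comparisons, the test used these same values, so a lack of overlap adds no support to a call. The call for DUSP6 was lost in 3 of 13 alternatives: without batch 3, without EVL-like cells and without the replicate block. IL17RD differed by 0.50 on the log2 scale (SE 0.14, adjusted p = 0.096) and was higher in FGF8A-positive cells of all 3 batches; it passed with thinned cells and with stricter class borders (adjusted p = 0.0059 and 0.040). SPRY1 showed the smallest difference, 0.13 (SE 0.45, adjusted p = 0.96).

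Among cells that all had TA UMIs, the list was shorter. Within TA-positive cells, the 36.7% with FGF8A were set against those without it, and 2 of 8 tested genes were higher, FLRT3 and FGF17, where 0.832% of all genes were called higher and 0.238% lower. FLRT3 had 1.35, 1.91 and 2.36 UMIs per 10000 in FGF8A-positive cells, against 0.503, 0.280 and 1.19 in FGF8A-negative cells (log2 difference 1.65, SE 0.24, adjusted p = 9.3e-04). FGF17 had 0.891, 1.39 and 0.838 against 0.625, 0.410 and 0.348 in the same order of classes (log2 difference 1.15, SE 0.23, adjusted p = 0.019). Neither gene overlapped between the classes. The level of TA still differed: it had 3.32, 6.68 and 4.08 UMIs per 10000 in FGF8A-positive cells, against 1.73, 2.29 and 3.09 in FGF8A-negative cells, and its part in these differences was not tested. DUSP6 stayed higher in each batch at a log2 difference of 0.56 (SE 0.17) without passing (adjusted p = 0.24), and SPRY2 differed by 0.14 (SE 0.32, adjusted p = 0.96). The FLRT3 call was lost with DESeq2 and without the replicate block, and the FGF17 call in 4 of 13 alternatives.

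Of the pathway lists, DUSP4 was again the called ETS and ERK target. It had 1.65, 1.87 and 2.55 UMIs per 10000 in FGF8A-positive cells, against 0.329, 0.347 and 0.600 in FGF8A-negative cells (log2 difference 2.27, SE 0.13, adjusted p = 1.0e-08). Within TA-positive cells the log2 difference was 1.79 (SE 0.15, adjusted p = 1.4e-06), and every alternative kept both calls. FGFR4 was lower in FGF8A-positive cells (log2 difference -0.59, SE 0.14, adjusted p = 0.045), a call lost in 6 of 13 alternatives. ETV5B averaged 4.51 ± 0.14 UMIs per 10000 in FGF8A-positive cells and 4.85 ± 0.18 in FGF8A-negative cells and was not called. Of the FGF-dependent margin and mesoderm genes, 11 of 13 were higher in FGF8A-positive cells and 7 of 12 within TA-positive cells. Within TA-positive cells these included the paraxial mesoderm genes MESPAA (log2 difference 2.80, SE 0.33, adjusted p = 9.2e-05) and MSGN1 (2.09, SE 0.39, adjusted p = 0.0087), while CDX4 and EVE1 were not called (adjusted p = 0.80 and 0.73).

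FGF8A-positive cells also carried more of other cells' markers. The keratin sum was 13.1, 10.5 and 10.1 UMIs per 10000 in FGF8A-positive cells, against 9.08, 7.52 and 7.45 in FGF8A-negative cells. The yolk syncytial layer sum was 1.19, 1.99 and 0.751 in FGF8A-positive cells, against 0.795, 0.250 and 0.281 in FGF8A-negative cells. CTSLL and GATA6, which is also expressed in endoderm, were higher in every batch, while HNF4A had 0.0521, 0.163 and 0.0110 in FGF8A-positive cells, against 0.0643, 0.0179 and 0.0209 in FGF8A-negative cells. The germ line sum was 3.14, 3.67 and 3.72 in FGF8A-positive cells, against 1.94, 1.54 and 3.41 in FGF8A-negative cells. Most of its UMIs were DDX4, which like DAZL was higher in every batch. NANOS3 had 0.104, 0.198 and 0.259 in FGF8A-positive cells, against 0.150, 0.130 and 0.636 in FGF8A-negative cells. The mean number of detected genes was 4145, 3527 and 3470 in FGF8A-positive cells, against 3653, 3215 and 3162 in FGF8A-negative cells. Within TA-positive cells all of these sums were also higher in FGF8A-positive cells of every batch. FLRT3 and FGF17 passed without the EVL-like cells, though within TA-positive cells FLRT3 alone did. The part of the yolk syncytial layer and germ line markers was not tested.

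FGF17-positive cells, 621 in number, were set against the remaining cells. Of 8 genes tested, FGF8A alone was higher, where 0.747% of all genes were called higher and 0.12% lower. FGF8A had 0.405, 0.783 and 0.669 UMIs per 10000 in FGF17-positive cells, against 0.220, 0.234 and 0.307 in FGF17-negative cells (log2 difference 1.21, SE 0.23, adjusted p = 0.0080), without overlap. The call was lost without batch 2 and without the replicate block. FLRT3 (log2 difference 1.07, SE 0.29, adjusted p = 0.11) and DUSP6 (0.61, SE 0.20, adjusted p = 0.22) did not pass. FLRT3 passed with no detection filter, thinned cells, stricter class borders and without batch 1. FGF17-positive cells were deeper, with medians of 59738, 58612.5 and 38167 UMIs against 46908, 51202 and 34358.5 in FGF17-negative cells, and had more detected genes, with means of 3897, 3480 and 3384 against 3285, 3034 and 3095 in FGF17-negative cells. The FGF8A call held with thinned cells. TA was found in 59.4% of FGF17-positive cells, against 55.1% of all kept cells. Its level was called higher in FGF17-positive cells (log2 difference 0.54, SE 0.12, adjusted p = 0.034), a call lost in 4 of 13 alternatives. The part of TA in the FGF8A call was not tested.

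FGF24-positive cells were rarer, with 91 against 909 FGF24-negative cells, and 2 of 8 tested genes were higher, where 0.301% of all genes were called higher and 0.0241% lower. FGF8A had 0.744, 1.79 and 0.897 UMIs per 10000 in FGF24-positive cells, against 0.341, 0.448 and 0.438 in FGF24-negative cells (log2 difference 1.41, SE 0.26, adjusted p = 0.023). DUSP6 had 1.26, 0.959 and 1.43 in FGF24-positive cells, against 0.510, 0.548 and 0.687 in FGF24-negative cells (log2 difference 1.07, SE 0.22, adjusted p = 0.049). Both genes were apart in all batches, and each call was lost in 7 of 13 alternatives. FGF24-positive cells were also deeper, with medians of 65089, 57979 and 38631 UMIs against 57142, 55753 and 35568.5 in FGF24-negative cells, and their keratin sum was 12.4, 14.8 and 8.64 UMIs per 10000, against 9.87, 7.64 and 8.11 in FGF24-negative cells. TA was found in 83.5% of FGF24-positive cells, against 55.1% of all kept cells. Its level was called higher in FGF24-positive cells (log2 difference 1.045, SE 0.13, adjusted p = 0.0011). The part of TA in the FGF8A and DUSP6 calls was not tested. FGF3-positive cells were too few, at 8, 6 and 6 per batch, for a comparison. Differences between the ligands in what they accompanied were not tested.

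**Figure D3:**
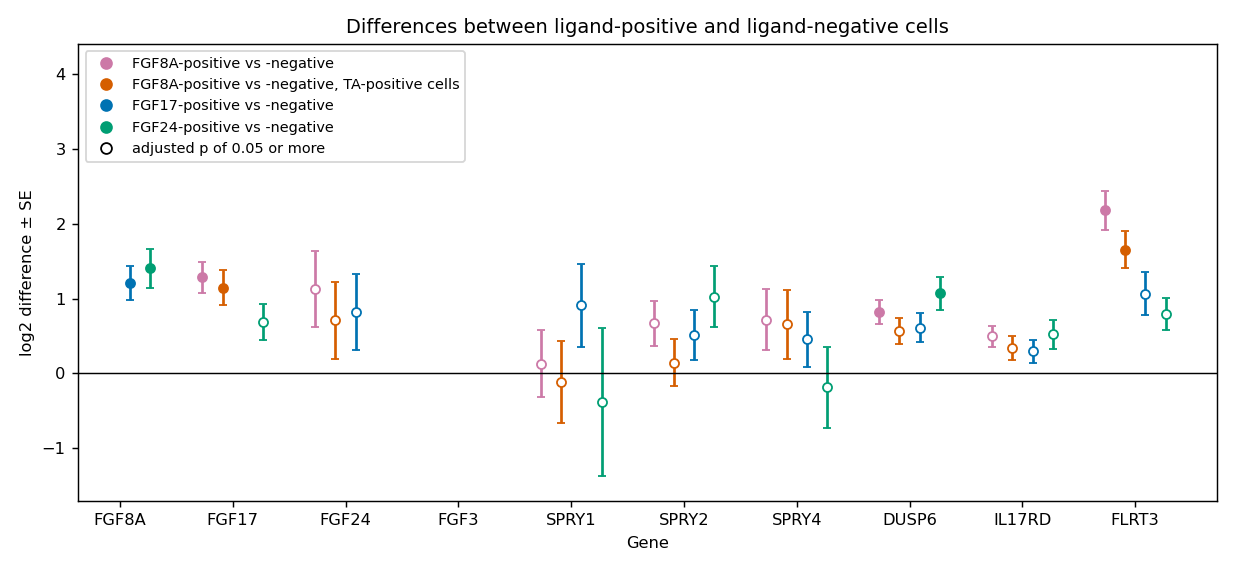
Log2 difference with SE (y axis) of each gene (x axis) between ligand-positive and ligand-negative cells, by colour for 4 comparisons; open markers missed an adjusted p of 0.05, and FGF3 was not tested. FLRT3 differed most between FGF8A-positive and FGF8A-negative cells, by 2.18, or by 1.65 within TA-positive cells.

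Ligands overlapped in the same cells. FGF17 was found in 77% of FGF8A-positive cells, and FGF8A in 29.6% of the 621 FGF17-positive cells. FGF8A was found in 38 of 91 FGF24-positive cells (41.8%) and in 12 of 20 FGF3-positive cells (60%). A single cell held all 4 ligands, and 394 cells held FGF17 alone. After thinning to 15000 UMIs, cells with both FGF8A and FGF17 were 1.34 times as many as independence within batches would give. For FGF8A with FGF24 there were 22 such cells, against 11.6 under independence.

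Co-expression was described by Spearman's rho across the 964 cells that could be thinned to 15000 UMIs, averaged over the 3 batches. Counts were sparse, and cells of a batch share their processing. The strongest pairs joined FLRT3 with TA (0.39 ± 0.12, SD over batches), FGF8A with FLRT3 (0.37 ± 0.12), FGF8A with TA (0.36 ± 0.07) and DUSP6 with TA (0.30 ± 0.03). FGF17 was closest to FLRT3, at 0.24 ± 0.07. Feedback genes were weakly related to each other: the highest pairs were IL17RD with FLRT3 at 0.14 ± 0.04, SPRY2 with DUSP6 at 0.13 ± 0.02 and DUSP6 with FLRT3 at 0.13 ± 0.09. SPRY2 and IL17RD stood at -0.0073 ± 0.0675. Counted by thinned cells, SPRY1 and SPRY2 were found together in 11, against 5.91 under independence within batches. SPRY2 and SPRY4 were found together in 22 cells, against 13.4, and SPRY1 and SPRY4 in 6, against 5.16.

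**Figure D4:**
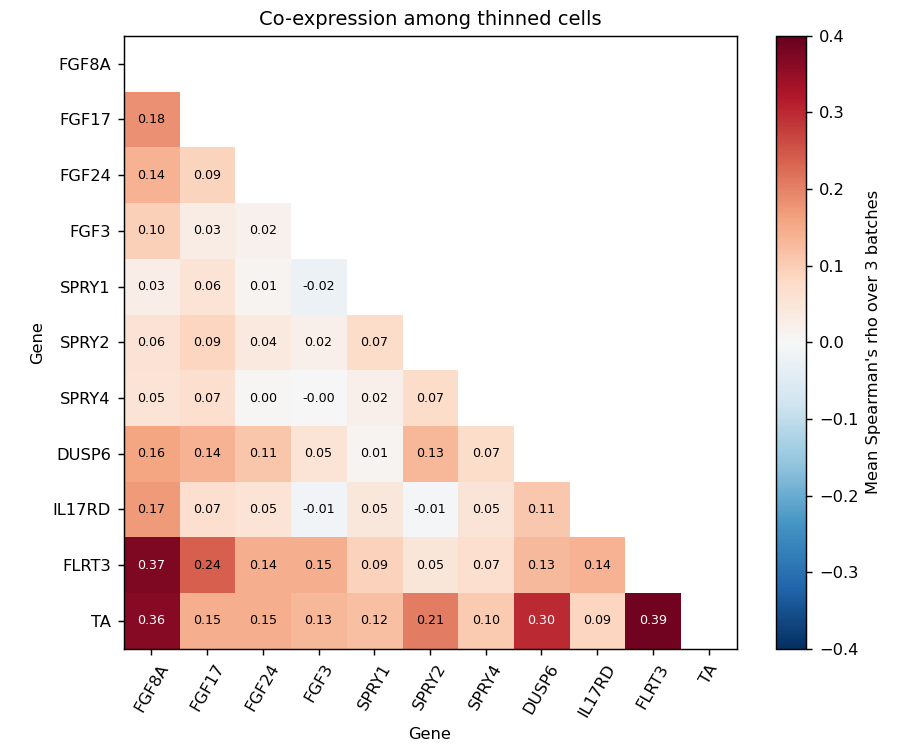
Mean Spearman's rho over 3 batches for each pair of the 10 genes and TA, in cells thinned to 15000 UMIs (colour scale and printed value). The darkest cells join TA with FLRT3, FGF8A and DUSP6, and FGF8A with FLRT3. Pairs of Sprouty genes stay between 0.02 and 0.07.

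Over 6050 genes found in at least 10% of cells, those most like FGF8A in this measure included MIXL1 (0.49), OSR1 (0.49), WNT11 (0.46) and DKK1B (0.41). FLRT3 shared OSR1 (0.53) and MIXL1 (0.52) at the top of its list, followed by MESPAB, GATA5 and ZIC2A (0.47, 0.47 and 0.46). DUSP6 was closest to WNT11 (0.30), TA (0.30), EVE1 (0.28), HES6 (0.27) and SEBOX (0.25). SPRY2 was closest to TA (0.21), SEBOX (0.19) and WNT11 (0.18), followed by AXIN2 and MIXL1 (0.18 and 0.17). Those most like FGF17 included MIXL1 (0.27), WDR38, NRXN1B and KIRREL3L (0.25 for each of the last 3). The remaining 5 genes had no partner above 0.23: FGF3 led with WNT8A (0.22), IL17RD with GTF2H2 (0.18), FGF24 with OSR1 (0.17), SPRY4 with FOXB1A (0.17) and SPRY1 with SEBOX (0.13).

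The number of feedback genes per cell was described last. Of the 6 feedback genes, thinned cells with FGF8A and TA UMIs carried 2.12, 2.14 and 2.47 on average in batches 1, 2 and 3, and cells with FGF8A but no TA carried 1.75, 1.38 and 1.73. Cells with TA but no FGF8A carried 1.60, 1.43 and 1.95, and cells with neither carried 1.07, 0.753 and 1.15. Cells with both thus stood above the other 3 classes in every batch, and cells with neither below them, while the classes with a single one of the 2 genes overlapped. FGF8A-positive TA-negative cells numbered only 12, 13 and 11. Before thinning, FGF8A-positive and TA-positive cells also had more detected genes of any kind in every batch, and the part of this in the counts was not tested. Of the 18.6% of thinned cells with at least 3 feedback genes, 81% had TA, 38% had FGF8A and 27.4%, or 49 cells, had no UMI of any of the 4 ligands. Of those 49 cells, 35 had TA and 14 did not. Among all thinned cells, TA was found in 47.8% and FGF8A in 18.8% (means of 3 batches), and 452 of 964 cells had no ligand UMI. A cell with no ligand UMI at this depth may still hold ligand transcripts.

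**Figure D5:**
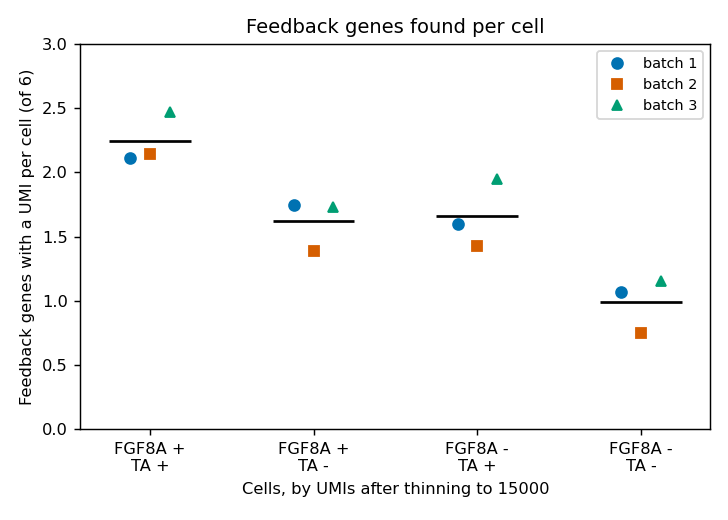
Mean number of feedback genes with a UMI per cell (y axis, of 6) in thinned cells grouped by FGF8A and TA UMIs (x axis), with 1 marker per batch and a line at the mean. Cells with both genes had 2.12 to 2.47, against 0.753 to 1.15 in cells with neither.

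Responder cells were defined as cells with no ligand UMI and a feedback score in the highest 1 in 3 of such cells, and 694 ligand cells were set against these responder cells, which made up 10.1% of all kept cells. The 10 genes define the classes and were not tested. Of 8397 other genes, 8 (0.0953%) were higher in ligand cells and 1 (0.0119%) was lower. The higher genes included the Nodal ligand NDR1, which had 0.242, 0.341 and 0.385 UMIs per 10000 in ligand cells, against 0.0240, 0.0199 and 0.0118 in responder cells (log2 difference 4.11, SE 0.71, adjusted p = 0.034). They also included the endoderm and mesoderm regulators GATA5 (log2 difference 2.61, SE 0.32, adjusted p = 0.0058) and MIXL1 (1.38, SE 0.20, adjusted p = 0.012), and the Wnt antagonist DKK1B (2.82, SE 0.44, adjusted p = 0.017). KIRREL3L, APLNRB and the keratin KRT18 were also higher, at log2 differences of 2.94, 1.60 and 0.77. Levels of NDR1 were very low in the few responder cells, and its call was lost in 4 of 14 alternatives. The call was lost in 6 of 14 for KRT18 and in 4 for KIRREL3L. It was lost in 3 each for APLNRB and MIXL1, and in 2 each for GATA5, DKK1B and ID1. DKK1B had 0 UMIs per 10000 in responder cells of batch 1. ID1, a BMP-responsive gene, was lower: it had 31.8, 29.6 and 32.6 UMIs per 10000 in ligand cells, against 40.1, 42.6 and 39.1 in responder cells (log2 difference -0.44, SE 0.06, adjusted p = 0.0095). All 9 genes were apart between the classes in the 3 batches, but they were picked by passing the test on these same values, so this adds no support.

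TA itself overlapped between these classes, at 2.20 ± 0.76 UMIs per 10000 in ligand cells and 1.89 ± 0.74 in responder cells. With DESeq2 the split was 1 gene higher and 47 lower, against 8 higher and 1 lower with edgeR. FGF17 alone accounted for 394 ligand cells, and with ligand cells defined by FGF8A, FGF24 and FGF3 only, a choice made after seeing the data, 57 genes were higher and 9 lower. Ligand cells were deeper in batches 1 and 2, with medians of 59567 and 57979 UMIs against 43028 and 35906 in responder cells. EVL-like cells were 28.2%, 18.5% and 24.3% of ligand cells, against 20%, 17.1% and 13% of responder cells. The yolk syncytial layer sum was 0.945, 0.897 and 0.554 UMIs per 10000 in ligand cells, against 0.527, 0.113 and 0.190 in responder cells. Detected genes averaged 3888, 3443 and 3352 in ligand cells, against 3144, 2922 and 3116 in responder cells. With cells thinned to 15000 UMIs 37 genes were higher in ligand cells, against 8 in the main fit. The fit was also repeated without EVL-like cells. The part of the yolk syncytial layer markers in the calls was not tested.

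Dorsal TA-positive cells (the highest 1 in 3 of a score that sets CHD, NOG1, GSC, FRZB, DHARMA and FOXA3 against VED, VENT, VOX, SZL and BAMBIA) were set against ventral ones (the lowest 1 in 3). None of the 9 genes tested was called, where 0.156% of 8340 genes were called higher and 0.156% lower, and 560 genes had an unadjusted p under 0.05. FLRT3 had 0.823, 0.656 and 1.17 UMIs per 10000 in dorsal cells, against 0.958, 1.10 and 1.97 in ventral cells. It was lower in dorsal cells within all 3 batches, with overlapping values over batches and a log2 difference of -0.58 (SE 0.20, adjusted p = 0.50). DUSP6 was also lower in dorsal cells within each batch (log2 difference -0.36, SE 0.21, adjusted p = 0.85). FGF8A was higher in dorsal cells within all 3 batches (log2 difference 0.24, SE 0.22, adjusted p = 0.92). FGF17 was higher in 2 of 3 batches (log2 difference 0.16, SE 0.24, adjusted p = 0.96). The same score split the caudal gene CDX4 (log2 difference -2.28, SE 0.24, adjusted p = 9.5e-05) and EVE1 (-2.90, SE 0.11, adjusted p = 4.5e-10), which were lower in dorsal cells, and NOTO, a notochord homeobox gene, which was higher (1.25, SE 0.12, adjusted p = 2.2e-05). EVL-like cells were 38.7%, 23.3% and 24.7% of dorsal cells, against 19.4%, 14% and 20.8% of ventral cells, and the keratin sum was 13.8, 11.5 and 8.66 UMIs per 10000 in dorsal cells, against 6.78, 8.72 and 6.85 in ventral cells. Without the EVL-like cells none of the 10 genes was called either.

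Levels in cells with markers of named lineages were described without a test, since the cell groups overlap. In MSGN1-positive cells (12.3% of all), marked by a paraxial mesoderm factor, FLRT3 reached 2.79 ± 0.65 UMIs per 10000, against 0.774 ± 0.391 in all kept cells. FGF8A reached 1.40 ± 0.46 in MSGN1-positive cells, against 0.474 ± 0.091 in all kept cells, and DUSP6 1.25 ± 0.37 against 0.645 ± 0.122. MSGN1-positive cells numbered 32, 19 and 72 in batches 1, 2 and 3. TA was found in 91.8% ± 3.8 of them, against 54.45% ± 10.7 of all kept cells, and its part in these levels was not tested. In cells with the endoderm factors SOX32 or SOX17 (13.3% of all), FLRT3 had 0.826, 1.68 and 3.92 in the 3 batches, and FGF17 averaged 1.10 ± 0.27. FGF24 stood at 0.0362 ± 0.0424 in those cells, against 0.0786 ± 0.0286 in all kept cells. In cells with the organizer genes GSC, FRZB or NOG1 (15.3% of all), FGF17 averaged 1.03 ± 0.42 and FGF8A 0.945 ± 0.297. In EVL-like cells (22.9% of all) FGF8A averaged 0.682 ± 0.168.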

How the data were processed

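The authors deposited raw UMI counts per gene and well. Bowtie and the build Zv9 are named per the submitters' processing notes; the aligner's version is not given in the sources used here. With 5 random bases in the tag, per the labels' protocols, only 1024 tags are possible; the highest count was 975. Wells with at least 2000 detected genes were kept, each column being 1 hand-picked well, and no doublet caller was run. Each class was summed within each batch and tested with edgeR 4.0.16 (quasi-likelihood, TMM, batch as a block, genes with a UMI in at least 5% of compared cells; R 4.3.3), with Benjamini-Hochberg adjusted p under 0.05 over all genes tested. A class needed 10 cells per batch, so the FGF3 comparison was dropped. SEs are the log2 difference over the square root of F. The fit was also run on simulated sums with known changes, for the TA and FGF8A splits only. This does not check the other comparisons, and its outcome is not reported here. Co-expression and groups by TA UMIs used Python 3.11.15 and cells thinned to 15000 UMIs, leaving out 7, 13 and 16 shallower cells. A score averages z values taken within batches, residual after regression on detected genes; EVL-like cells come from a Gaussian mixture of 2 components on keratin levels. Seeds of a score and the genes defining a class were left out of its test. Named genes are the 10 members, called members of 5 gene lists, the called genes of the ligand and responder comparison (clone names skipped) and the 5 genes most like each member; uncalled list genes were chosen for mention after their values were seen. Some genes that this rule names are not reported here. Alternatives were DESeq2 1.42.0, RLE factors, no detection filter, no block, stricter class borders, cell filters and leaving out each batch. Members and lists were chosen with earlier results of these data known. In summed counts, fewer positive cells and less RNA per cell cannot be told apart. Intervals and floors cover counting error only.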

Additional observations from a re-analysis of the deposited data

How the results depend on the processing

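Of 57 tested differences of the 10 genes, 12 were called, all of them higher. Across these comparisons the share of all genes called higher ran from 0.156% (dorsal cells) to 1.36% (FGF8A-positive cells). The 57 differences reuse the same 1000 cells and are not independent. FGF17 in FGF8A-positive cells and FGF8A in FGF17-positive cells, for example, are 1 association seen from both sides. Over 737 alternative values, 665 kept direction and side of the threshold, 28 lost a call, 19 gained one and 25 changed sign; none of the changes of sign touched a called difference, and the causes were not tested. Among 62 called differences of other named or listed genes, 678 of 809 alternative values kept the call, the others lost it and 0 changed sign. The well numbers in the labels only name cells, so batch was the block. Without the replicate block the count of genes called higher fell to 1 in FGF8A-positive cells, and to 0 within TA-positive cells, in FGF17-positive cells and in FGF24-positive cells, and to 0 of all genes for ligand against responder cells.

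The number of the 10 genes called higher in TA-positive cells was 6 with no detection filter, 5 with DESeq2, with stricter borders and without wells of over 5000 detected genes, and 3 to 5 when each batch was left out in turn. In near-margin cells it was 1 (FLRT3) with no detection filter, with DESeq2, with thinned cells, without EVL-like cells and with stricter borders, and 0 to 1 leaving out batches. For FGF8A-positive cells it was 4 with thinned cells and with stricter borders, 2 without EVL-like cells, and 2 to 3 leaving out batches. Within TA-positive cells it was 1 with DESeq2, with thinned cells and without EVL-like cells, and 1 to 2 leaving out batches. For FGF17-positive cells it was 2 with no detection filter, thinned cells or stricter borders, and 0 to 2 leaving out batches. For FGF24-positive cells it was 0 without EVL-like cells, with stricter borders and without wells of over 5000 detected genes, and 0 to 1 leaving out batches. Genes higher in ligand cells numbered 23 with no detection filter, 1 with DESeq2, 37 with thinned cells, 57 with FGF17 left out of the definition (chosen after seeing the data), and 6 to 10 leaving out batches; those lower ranged from 0 to 47.

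Counts over all genes moved more: relative to the main count, those higher ranged from 0.54 to 1.46 times in TA-positive cells, 0.611 to 1.94 in near-margin cells, 0.443 to 1.26 in FGF8A-positive cells, 0.329 to 1.47 within TA-positive cells, 0 to 1.68 in FGF17-positive, 0 to 1.88 in FGF24-positive and 0.308 to 2.62 in dorsal cells. The numbers lower ranged from 2 to 38, 0 to 5, 4 to 78, 1 to 57, 0 to 30, 0 to 7 and 4 to 33 in the same order. Without a filter the median of all genes lay at -0.21 for FGF24-positive cells and 0.36 for ligand cells.

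All sign changes were in differences that were not called. In near-margin cells SPRY2 (main -0.01) took 1.58 with thinned cells, 0.70 without EVL-like cells, 1.35 with stricter borders, 0.72 in cells of at least 20000 UMIs and -0.535 to 0.543 leaving out batches. For FGF8A within TA-positive cells, SPRY1 took 0.033 without EVL-like cells, 0.0282 with stricter borders and -0.546 to 0.184 leaving out batches, and SPRY4 -0.0678 to 1.06. In FGF24-positive cells SPRY1 took 0.000803 without EVL-like cells, 0.0513 with no replicate block and -1.46 to 0.616 leaving out batches, and SPRY4 0.0256 without EVL-like cells. In dorsal cells FGF17 took -0.0203 to 0.346, FGF24 -0.193 to 0.0449, SPRY2 -0.128 to 0.102 and SPRY4 -0.121 to 0.599 leaving out batches. There FGF24 took 0.10 with thinned cells, 0.0769 without EVL-like cells and 0.151 without wells of over 5000 detected genes, SPRY2 0.0272, 0.0743 and 0.0157 in the same order, and SPRY4 -0.41 with thinned cells. All 30 alternative levels stayed within 1 SD, and 15 of 110 co-expression values moved by more. FGF3, FGF24 and SPRY1 were sparse, found in 2%, 9.1% and 8.6% of cells, and the part of depth in this was not tested.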

Other observations

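FGF4, another FGF ligand, had a UMI in 38 of 551 TA-positive cells and in 3 of 449 TA-negative cells. Its level was 0.0151, 0.146 and 0.0834 UMIs per 10000 in TA-positive cells of batches 1, 2 and 3, against 0.0078, 0.0137 and 0.0024 in TA-negative cells, without overlap between the classes. It was found in 10.9% of FGF8A-positive cells, against 1.97% of FGF8A-negative cells. In these comparisons FGF4 fell below the detection filter; with no filter it was called higher in TA-positive cells (log2 difference 2.90, SE 0.71, adjusted p = 0.0045) and in FGF8A-positive cells (2.39, SE 0.57, adjusted p = 0.0031) by edgeR's quasi-likelihood test. Where it passed the filter it was not called: within TA-positive cells the log2 difference of FGF8A-positive against FGF8A-negative cells was 1.80 (SE 0.57, adjusted p = 0.26), and the adjusted p was 0.99 for ligand against responder cells and 0.82 for dorsal against ventral cells. FGF4 was chosen for mention after its values were seen.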
